A study of Rattus norvegicus with 8 samples.

Results

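CC chemokines are small secreted proteins that direct the movement of leukocytes, and 8 of their genes, Ccl2, Ccl3, Ccl4, Ccl5, Ccl7, Ccl11, Ccl20 and Ccl22, were followed here in rat skin. They were taken by name, as the probes whose RefSeq accession maps to these genes, and each had 1 probe with 1 spot, so that they make up 8 of 24684 probes and 8 of 13903 named genes on the array. The tissue was skin taken at full thickness from male Sprague-Dawley rats. In the STZ group, rats of 4 weeks were injected intraperitoneally with 60 mg/kg streptozotocin, which destroys the beta cells that make insulin, and skin was taken 4 weeks later, at 8 weeks of age. In the sham group, rats of the same age received sodium citrate solution and were sampled at the same time. The labels mention a cutaneous wound made after these 4 weeks and leave it unclear if the skin on the arrays was from such a wound. The comparison asked how the chemokines of STZ skin differed from those of sham skin.

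The family takes its name from adjacent cysteines near the start of the mature protein. The ligands bind glycosaminoglycans of the matrix and the endothelium, and leukocytes with the matching G protein-coupled receptor move towards them. Macrophages, T cells, keratinocytes and fibroblasts make them, many only after a cytokine or microbial signal acting through the transcription factor NF-kB. One receptor usually binds several ligands, and many ligands bind several receptors.

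The labels list 4 STZ and 4 sham samples, but replicates 1 and 3, and replicates 2 and 4, of each group were scans of 1 array. Spot deviations correlated at 0.979 to 0.993 within these 4 pairs and at 0.743 or less in all 24 other pairs. The scans were averaged, so that 2 STZ arrays were compared with 2 sham arrays (n = 2 each). The labels do not give the number of rats behind an array, and the p-values measure only the spread between these arrays. Array 1 of a group denotes replicates 1 and 3, and array 2 replicates 2 and 4. The 75th percentile of spot intensity was 1481 and 1496 in the scans of STZ array 1, 606 and 624 in those of STZ array 2, and 1138 to 1336 in the sham samples. All 4 arrays lay on 1 slide. Skin markers were present throughout: the 5 tested keratinocyte and the 5 tested fibroblast genes were well above background in all 8 samples. Each of the 8 probes was well above background in all 8 samples, no spot was saturated, and the scans of an array differed by at most 0.11 on the log2 scale for any of the 8 probes. Levels below are log2 intensity over the sample's 75th percentile. Changes are STZ minus sham on the log2 scale, relative to the tested probes' median, which itself lay 0.23 higher in STZ.

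Of the 8 chemokines, Ccl3, Ccl4, Ccl5 and Ccl20 stood far above their sham level on both STZ arrays. Ccl2 was slightly higher on both, and Ccl7, Ccl11 and Ccl22 overlapped between the groups. The changes ran from −0.55 to 6.78, with a median of 1.73 over the 8 genes, against 0 over all tested probes by construction. Of the 8, 4 were higher at an unadjusted p under 0.05, where 7.32% of all tested probes were, and 0 were lower, where 3.54% of all tested probes were (limma's moderated test). In 5 of the 8, both STZ arrays lay above both sham arrays, as did 26.8% of all tested probes. After Benjamini-Hochberg adjustment over 21527 probes, 0 of the 8 and 0% of all probes passed in limma, and the adjusted p of the 8 ran from 0.0924 for Ccl3 to 0.981 for Ccl11. An exact permutation test of 2 arrays against 2 cannot go below a p of 0.333. In bulk skin, more cells of a type and more RNA per cell cannot be told apart.

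**Figure D1:**
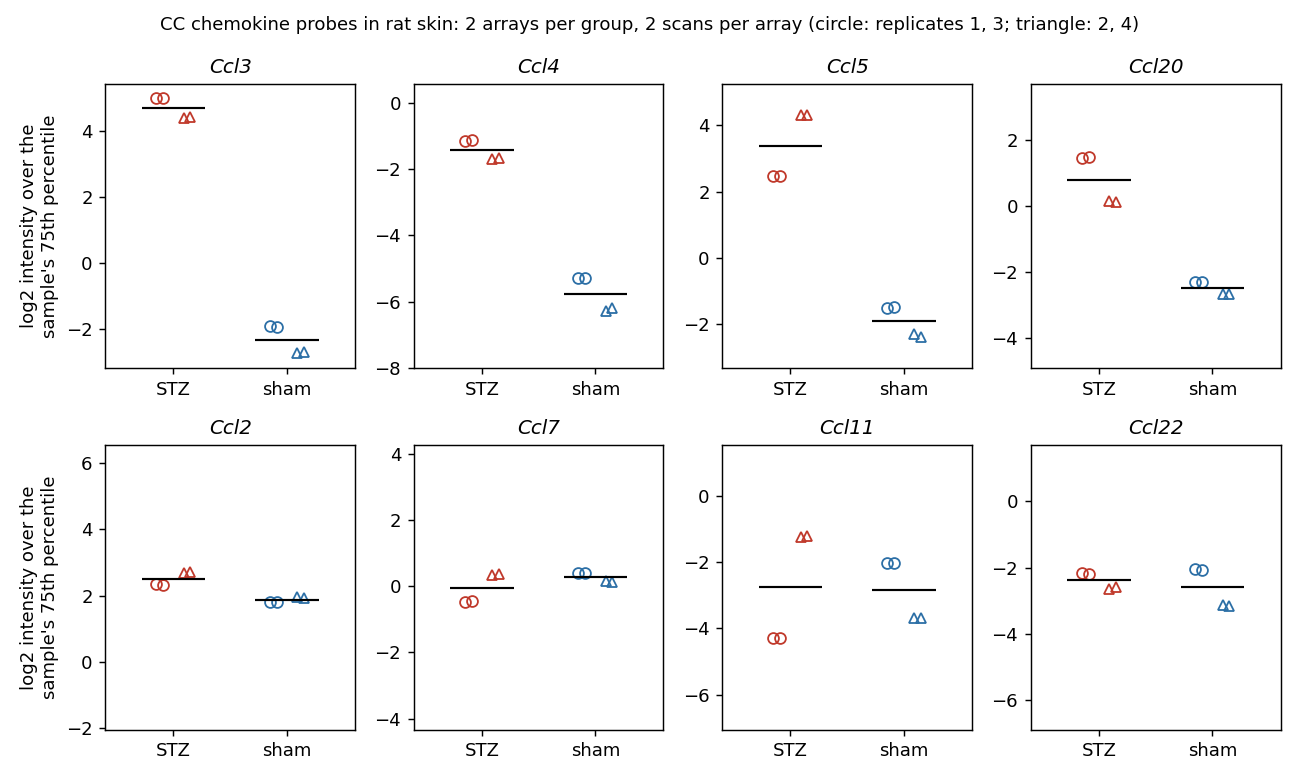
Level of each of the 8 CC chemokine probes (log2 intensity over the sample's 75th percentile, 1 panel per gene, all panels spanning the same number of log2 units) in STZ and sham skin. Each symbol is 1 scan, circles are replicates 1 and 3 (array 1) and triangles replicates 2 and 4 (array 2), and the bar is the mean of the 2 arrays. The groups are widely apart for Ccl3, Ccl4, Ccl5 and Ccl20, while Ccl11 differs more between the 2 STZ arrays than between the groups.

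Ccl3 (MIP-1a) and Ccl4 (MIP-1b), ligands made by activated macrophages and T cells that recruit monocytes and T cells, were both higher in STZ skin. The Ccl3 probe had levels of 4.98 and 4.40 on the STZ arrays, against −1.92 and −2.71 on the sham arrays. In processed signal, this was 46572 and 47076 in the scans of STZ array 1 and 12754 and 13200 in those of STZ array 2, against 303 and 307 for sham array 1 and 196 and 206 for sham array 2. Ccl3 thus lay apart in every scan, and its change of 6.78 ± 0.52 (SE; 95% interval 5.45 to 8.10) corresponds to a 110-fold difference. It was the largest change among the 8, the 10th largest among all tested probes, and its adjusted p was 0.0924.

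Ccl4 had levels of −1.14 and −1.68 on the STZ arrays, against −5.29 and −6.24 on the sham arrays, so that STZ array 1 was the higher of its group for Ccl4 as for Ccl3. Its change was 4.13 ± 0.54 (SE; 95% interval 2.75 to 5.52; adjusted p = 0.106). The sham signals of this probe were dim, between 16.5 and 30.1 in processed intensity, and its change was 2.29 with normexp background correction and quantile normalization. Ccl3 and Ccl4 are neighbouring genes on rat chromosome 10 in the RefSeq table of GRCr8.

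Ccl5 (RANTES), a ligand of Ccr1 and Ccr3, among others, made in quantity by activated T cells and natural killer (NK) cells, was also higher in STZ skin. Its levels were 2.47 and 4.31 on the STZ arrays, against −1.50 and −2.34 on the sham arrays. Here STZ array 2 was the higher of its group, and the groups did not overlap. The change was 5.08 ± 0.76 (SE; 95% interval 3.12 to 7.04; adjusted p = 0.137), a 33.9-fold difference, and it was 4.36 without STZ array 2 and 5.85 without STZ array 1.

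Ccr1, a receptor of Ccl3, Ccl5 and Ccl7 on monocytes and neutrophils, had levels of 3.03 and 2.51 in STZ, against 1.45 and 0.21 in sham, a change of 1.72 ± 0.59 (SE, adjusted p = 0.345). Both STZ arrays thus lay above both sham arrays for Ccr1, at an unadjusted p of 0.0218 in limma's test.

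Ccl20 (MIP-3a), which keratinocytes make after interleukin-17 or interleukin-1 and which is the chemokine ligand of Ccr6, had levels of 1.45 and 0.13 on the STZ arrays, against −2.30 and −2.67 on the sham arrays. The groups were apart, with STZ array 1 the higher. Its change was 3.05 ± 0.60 (SE; 95% interval 1.51 to 4.59; adjusted p = 0.172), an 8.28-fold difference, and it was 3.91 without STZ array 2 and 2.23 without STZ array 1. Ccr6, carried by interleukin-17-producing T cells, B cells and dendritic cell precursors, had levels of −0.20 and 0.67 in STZ, against −1.24 and −2.98 in sham. Its change was 2.12 ± 0.74 (SE, adjusted p = 0.365), and unlike its ligand it was higher on STZ array 2.

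Ccl2 (MCP-1) and Ccl7 (MCP-3), the monocyte chemoattractants that bind Ccr2, had small changes that did not pass the test. Ccl2 had levels of 2.34 and 2.69 on the STZ arrays, against 1.80 and 1.94 on the sham arrays. The groups did not overlap, yet the change was 0.42 ± 0.43 (SE; 95% interval −0.69 to 1.52; adjusted p = 0.621), and it was 0.78 after quantile normalization. Ccl7 had levels of −0.45 and 0.36 on the STZ arrays, against 0.40 and 0.15 on the sham arrays. STZ array 1 lay below both sham arrays and STZ array 2 between them, and the change was −0.55 ± 0.49 (SE; 95% interval −1.81 to 0.72; adjusted p = 0.815). Ccr2, their receptor on inflammatory monocytes, had levels of −2.66 and −3.16 in STZ, against −3.27 and −4.09 in sham, a change of 0.54 ± 0.51 (SE, adjusted p = 0.620). The intervals of Ccl2 and Ccl7 end at 1.52 and 0.72, below the lower ends for Ccl3, Ccl4 and Ccl5, though the difference between genes was not tested. Ccl2, Ccl7 and Ccl11 follow each other on chromosome 10, on which Ccl3, Ccl4 and Ccl5 also lie.

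**Figure D2:**
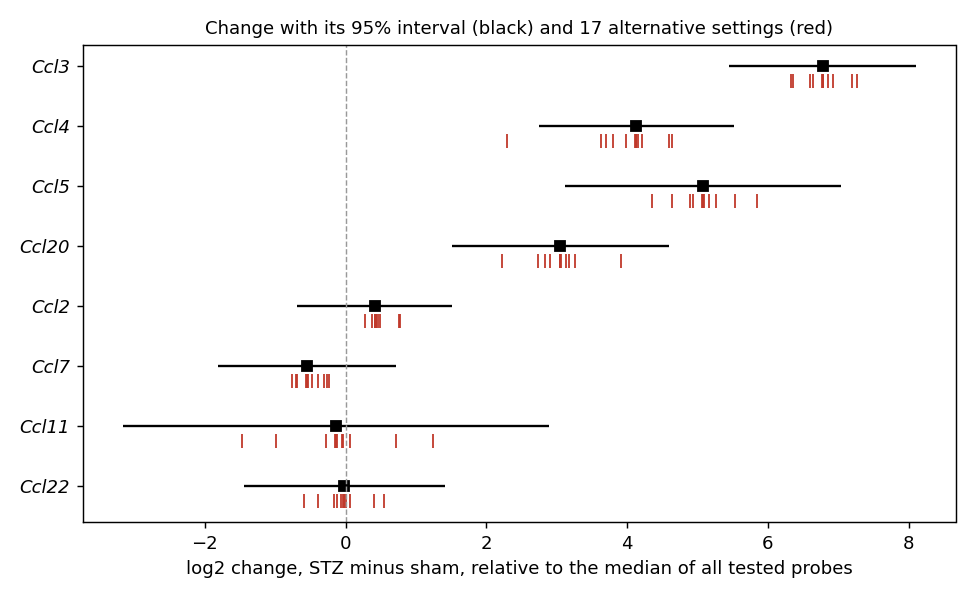
Change of each chemokine (STZ minus sham, log2, relative to the tested probes' median) with its 95% interval from limma (black square and line) and its value under each of 17 alternative settings (red ticks). Ccl3, Ccl4, Ccl5 and Ccl20 stay above 2 under every setting drawn, while the values of Ccl11 and Ccl22 fall on both sides of 0.

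The promoters of Ccl20 and Ccl7, a member that was higher in STZ skin and one that was not, are shown for comparison, as the 250 bases before the gene's start (RefSeq, GRCr8, plus strand; chr9:91836909-91837158 for Ccl20 and chr10:67513845-67514094 for Ccl7). Sequences matched 3 of the 8 members, Ccl7, Ccl20 and Ccl22. Capitals mark a match to the NF-kB consensus, searched on both strands, and no other searched motif overlapped it.
Ccl20: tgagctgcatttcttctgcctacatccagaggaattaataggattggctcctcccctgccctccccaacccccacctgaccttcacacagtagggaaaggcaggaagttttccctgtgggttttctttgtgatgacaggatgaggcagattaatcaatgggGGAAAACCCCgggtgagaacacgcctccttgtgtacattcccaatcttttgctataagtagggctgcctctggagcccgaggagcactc
Ccl7: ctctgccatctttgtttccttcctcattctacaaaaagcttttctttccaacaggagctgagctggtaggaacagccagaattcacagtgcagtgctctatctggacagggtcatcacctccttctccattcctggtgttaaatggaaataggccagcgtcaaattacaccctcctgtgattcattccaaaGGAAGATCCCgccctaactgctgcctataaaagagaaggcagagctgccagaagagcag
The NF-kB match begins 89 bases before the start in Ccl20 and 59 bases before it in Ccl7, on the opposite strand in both. Such a match stands in 6.33% of 33469 rat promoters of this length. The AP-1 motif TGANTCA (6.34% of promoters) and the TATA box TATAAA (12.9%) were matched in Ccl7, 73 and 34 bases before its start, and in neither of the other members. The STAT motif TTCNNNGAA (7.67%) and the STAT6 motif TTCNNNNGAA (6.25%) were in none of the 3 windows, and Ccl22 held none of the searched motifs. An NF-kB match was therefore present both in the promoter of a chemokine that was higher and in that of one that was not.

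Ccl11 (eotaxin-1), a fibroblast product that draws eosinophils through Ccr3, showed the widest spread. Its levels were −4.30 and −1.22 on the STZ arrays, against −2.02 and −3.69 on the sham arrays, so that the STZ arrays were the lowest and the highest of the 4. The change was −0.14 ± 1.18 (SE; 95% interval −3.17 to 2.90; adjusted p = 0.981), and its sign depended on the array left out. It was 1.25 without STZ array 1 and 0.72 without sham array 1, but −1.48 without STZ array 2 and −0.99 without sham array 2. On the 75th percentile scale the difference was 0.09. The STZ arrays differed by 2.73 relative to the median difference of all probes between them, and 2.52% of tested probes differed by as much or more in either direction. Between the sham arrays the difference was −1.63 on that scale, a size reached by 6.51% of probes. Ccr3 had levels of −6.53 and −5.17 in STZ, against −6.44 and −7.14 in sham, with a change of 0.71 ± 0.63 (SE, adjusted p = 0.624), and was well above background in 4 STZ and 3 sham samples. Of 6 eosinophil markers, 3 were tested, the granule gene Prg2, Ccr3 and the lipoxygenase gene Alox15, and 0 were at an unadjusted p under 0.05. Prg2 changed by 0.48 ± 0.72 and Alox15, in the other direction, by −0.98 ± 0.97 (SE). Alox15 was the brightest of the 3 on each array and carries most of the mean level. Their mean level was −4.34 and −2.52 on the STZ arrays, against −3.91 and −2.14 on the sham arrays (log2 of the mean over tested genes). Of the untested ones, the peroxidase gene Epx was well above background in 2 STZ samples and 1 sham sample, and the receptor gene Il5ra in 0 of 8. Their part in the values of Ccl11 was not tested.

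Ccl22 (MDC), which dendritic cells and macrophages make and which draws T cells through Ccr4, did not separate the groups. Its levels were −2.16 and −2.61 on the STZ arrays, both within the range of −2.05 and −3.14 on the sham arrays. The change was −0.02 ± 0.55 (SE; 95% interval −1.44 to 1.41; adjusted p = 0.901), and 0.21 on the 75th percentile scale. Its sign therefore depends on the scaling, and it was also positive without STZ array 2 (0.40) and without sham array 1 (0.55). Ccl17 (TARC), the other ligand of Ccr4, had levels of −1.92 and −2.0 in STZ, against −4.22 and −5.59 in sham, and a change of 2.72 ± 0.60 (SE, adjusted p = 0.200). The difference between Ccl17 and Ccl22 was not tested. Ccr4 itself had levels of −6.16 and −3.83 in STZ, against −6.35 and −8.77 in sham, a change of 2.33 ± 1.14 (SE, adjusted p = 0.515), and was well above background in 4 STZ and 2 sham samples.

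Of 12 other CC chemokines, 9 were tested, with a median change of 1.90. At an unadjusted p under 0.05, 4 of them were higher and 0 lower, namely Ccl9 (3.70 ± 0.44), Ccl6 (2.58 ± 0.44), Ccl17 (above) and Ccl19 (1.90 ± 0.58, SE). Ccl6 and Ccl9 are ligands of Ccr1 known from the mouse, and Ccl19 guides cells with Ccr7. Their adjusted p ran from 0.102 to 0.301, and none passed. Over all tested probes, 7.32% were higher and 3.54% lower at the unadjusted level in limma, shares to be held beside this and the following lists. Among 14 listed receptors, 9 were tested, with a median change of 0.80, and at the unadjusted level 3 were higher and 0 lower. The list holds Ackr3, whose chemokine ligands are of the CXC type. Beside Ccr1 and Ccr6, the receptor-like gene Ccrl2 was higher, by 1.35 ± 0.46 (SE, adjusted p = 0.333). Ackr2, a scavenging receptor that takes up and degrades inflammatory CC chemokines, had levels of −2.94 and −3.02 in STZ, against −1.89 and −2.85 in sham. Its change of −0.84 ± 0.51 (SE, adjusted p = 0.672) did not pass, though both STZ arrays lay below both sham arrays.

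**Figure D3:**
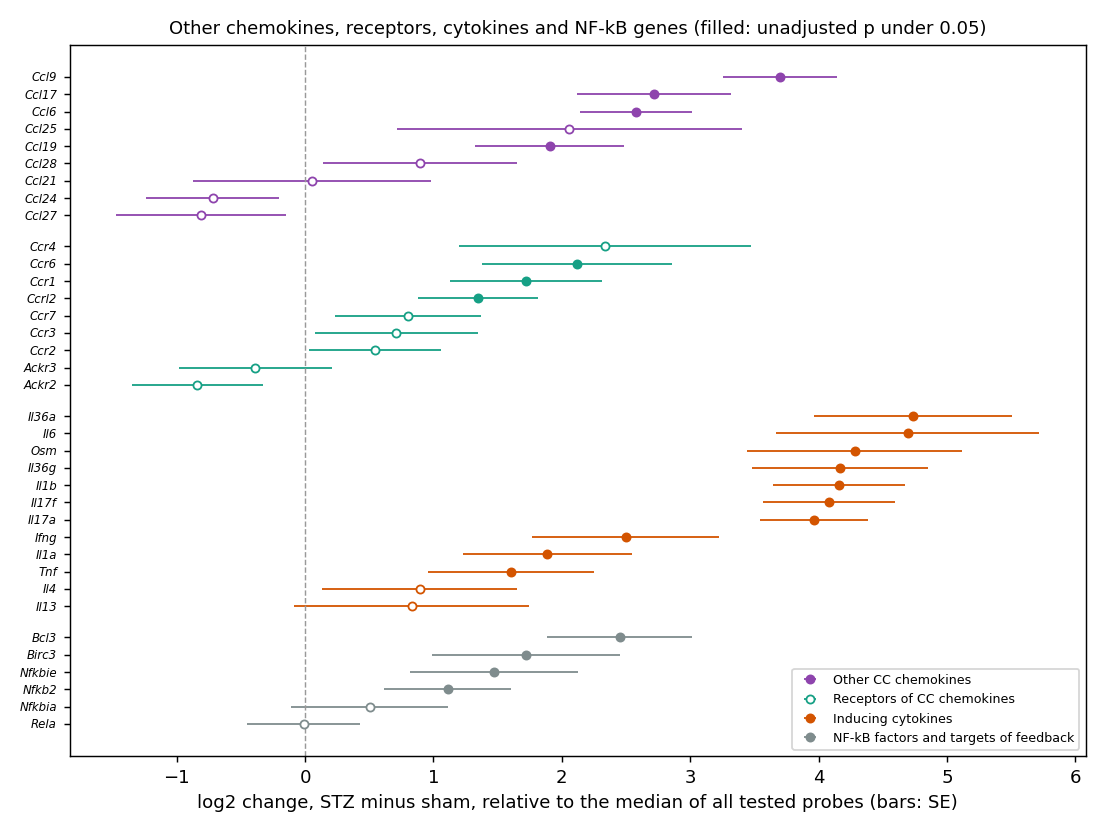
Changes (STZ minus sham, log2, relative to the tested probes' median, bars are SE) of the tested other CC chemokines, receptors, inducing cytokines and NF-kB genes, each in its own block and ordered by change. Filled points had an unadjusted p under 0.05, and none passed after adjustment. All 12 cytokines lie right of 0, with fitted values drawn for Il17a, Il17f and Ifng, which were not measured well in sham, while Ackr2, Ackr3, Ccl24, Ccl27 and, at −0.01, Rela lie left of it.

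Of 14 cytokines that induce one or more of these chemokines, 12 were tested. All 12 had a positive change, though the groups overlapped for Il4 and Il13. At an unadjusted p under 0.05 in limma, 10 of the 12 were higher, and 0 passed after adjustment. Il17a, Il17f and Ifng, all 3 among the 10, were well above background in 0 sham samples. They entered the test only through STZ and do not count as support. The median change was 4.02, or 3.35 with these 3 set at the sham values described below. Il1b, the interleukin-1 beta gene, was higher by 4.16 ± 0.51, and Il36a, an epithelial member of that family, by 4.73 ± 0.77 (SE, adjusted p = 0.102 and 0.145). Il17a, an inducer of Ccl20, and Il17f, its relative, stood well above background in 0 of 4 sham scans. Il17f was at least 7.84-fold higher in STZ on the 75th percentile scale. For Il17a the ratio was 18.3, which is no lower bound, as both sham arrays stood at the probe's own dim signal. For these values, each sham array was set at the probe's signal or at the lowest signal well above background, whichever was greater. Il4 and Il13, cytokines that induce Ccl11 and Ccl22, had changes of 0.89 ± 0.76 and 0.83 ± 0.92 (SE; chosen after their values were seen), at adjusted p of 0.624 and 0.682. Levels of Il4 were −5.28 and −3.27 on the STZ arrays, against −5.28 and −5.52 on the sham arrays. Those of Il13 were −6.94 and −4.35, against −6.63 and −6.77. Both genes lay above both sham arrays on STZ array 2 only. Probes with a mean signal below the median of all probes lay 1.09 higher there than on STZ array 1.

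NF-kB carries the signals of several of these cytokines to the chemokine genes. Of 11 listed genes of its pathway, 6 were tested, with a median change of 1.29, and 4 were higher at an unadjusted p under 0.05. They were Bcl3, a nuclear IkB protein (2.45 ± 0.56), Birc3, an inhibitor of apoptosis (1.72 ± 0.73), Nfkbie, an inhibitor of NF-kB (1.47 ± 0.66), and Nfkb2, a subunit (1.11 ± 0.49, SE), with adjusted p of 0.202 to 0.460. In the list of STAT factors and their regulators, 1 of 7 tested genes was at an unadjusted p under 0.05, the transcription factor Irf1 (1.18 ± 0.47, SE, adjusted p = 0.389). The other genes named by rule there were Socs3 (1.33 ± 0.78) and Socs1 (0.47 ± 0.55), inhibitors of cytokine signalling, and Stat3 (0.95 ± 0.58, SE), fitted without STZ array 2, where it had no value. Of genes that limit chemokine transcripts, 1 of 4 tested was at that level, the endonuclease gene Zc3h12a (1.82 ± 0.70, SE, adjusted p = 0.402). The others were Zfp36 (0.59 ± 0.43) and Zfp36l1 (−0.36 ± 0.51), which bind AU-rich elements, and the phosphatase gene Dusp1 (−0.81 ± 0.53, SE).

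Among genes whose products carry or cut chemokines, 6 of 7 were tested, with a median change of 0.68. The peptidase gene Dpp4, which trims the amino end of Ccl5, Ccl11 and Ccl22, had levels of −1.76 and −1.02 in STZ, against 0.33 and 0.18 in sham. It was the 1 gene of this list that was lower at an unadjusted p under 0.05 (−1.87 ± 0.48, SE, adjusted p = 0.322). The metalloproteinase genes Mmp9 (7.67 ± 0.54), Mmp12 (7.87 ± 1.27) and Mmp2 (1.18 ± 0.53, SE) were higher, at adjusted p of 0.0877, 0.148 and 0.444.

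Many markers of cells that make these chemokines or respond to them were higher on the same STZ arrays, and their part in the chemokine values was not tested. All 12 monocyte and macrophage markers were tested, and 11 of 12 were higher at an unadjusted p under 0.05 in limma. Their mean level was 4.59 and 5.13 on the STZ arrays, against 2.79 and 1.77 on the sham arrays (log2 of the mean over tested genes). Lyz2, the brightest of the 12 on each array, weighs most in this mean (7.18 and 7.88 in STZ, against 5.18 and 3.76 in sham). Of 10 neutrophil markers, 8 were tested and 6 were higher at an unadjusted p under 0.05, with mean levels of 2.94 and 3.07 in STZ, against −2.15 and −2.34 in sham. Most of this mean is carried by 1 bright gene, S100a8 (5.78 and 6.01 in STZ, against 0.46 and 0.28 in sham). All 10 T cell markers were tested and 9 were higher, with mean levels of −0.04 and 0.63 in STZ, against −2.37 and −2.67 in sham. Of 7 NK and cytotoxic cell markers, 4 were higher, with mean levels of −1.85 and −0.43 in STZ, against −3.38 and −3.49 in sham. The tested markers of these 4 lists were above background in at least 1 sham sample. Of 8 dendritic cell markers, 4 were tested and 1 was higher, and of 5 tested keratinocyte markers 1 was higher and 1 lower. Of 5 tested fibroblast markers 1 was higher, and of 4 tested endothelial markers 2. Of 2 tested markers of type 17 and regulatory T cells 1 was higher, Ctla4. It was well above background in 0 sham samples and entered the test only through STZ. Of 8 mast cell markers 0 were at that level, with a median change of −0.78, and all 4 tested erythroid genes were lower at it, with a median change of −3.79.

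Single chemokines differed between the STZ arrays in both directions. Relative to the median difference between these arrays, array 2 minus array 1 was 1.50 for Ccl5 and 2.73 for Ccl11, but −0.92 for Ccl3, −0.88 for Ccl4 and −1.67 for Ccl20. It was 0.01 for Ccl2. Signal depth moved with this difference, since probes with a mean signal below the median of all probes lay 1.09 higher on array 2, and those above it −0.01. Set against its own brightness group, the difference was 1.85 for Ccl5, 1.99 for Ccl11, −0.57 for Ccl3, −1.63 for Ccl4 and −1.32 for Ccl20, so the directions of these 5 were the same.

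The lists were also compared between the STZ arrays, and counts are given against each gene's brightness group. By construction, as many probes of a brightness group lie above its median as below it. Counts near an even split, such as 5 of 7 or 5 of 8, therefore do not set a list apart. Higher on array 2, as Ccl5 and Ccl11 were, stood 5 of 7 NK and cytotoxic markers (median 0.64), 7 of 10 T cell markers (0.28), 9 of 12 monocyte and macrophage markers (0.21), 3 of 3 eosinophil markers (0.58), 3 of 4 dendritic cell markers (0.15) and 5 of 5 fibroblast markers (1.02). Without regard to brightness, 7 of 7 NK and cytotoxic markers but 5 of 12 monocyte and macrophage markers were higher on array 2. Higher on array 1, as Ccl3, Ccl4 and Ccl20 were, stood 4 of 5 keratinocyte markers (median −1.44), 5 of 8 neutrophil markers (−0.92), 6 of 6 NF-kB genes (−0.90) and 9 of 12 inducing cytokines (−0.95). So did 6 of 6 genes of the STAT list (−0.40), 4 of 4 that limit chemokine transcripts (−0.78) and 2 of 2 type 17 and regulatory T cell markers (−0.41). The other lists were split, the most uneven being the genes that carry or cut chemokines, with 4 of 6 on array 1 (median −1.05). Mast cell markers stood at 5 of 8 on array 1 (−0.19), the same count as the neutrophil markers. The comparison describes 1 array against another, has no replicate, and the part of the listed cells in it was not tested.

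**Figure D4:**
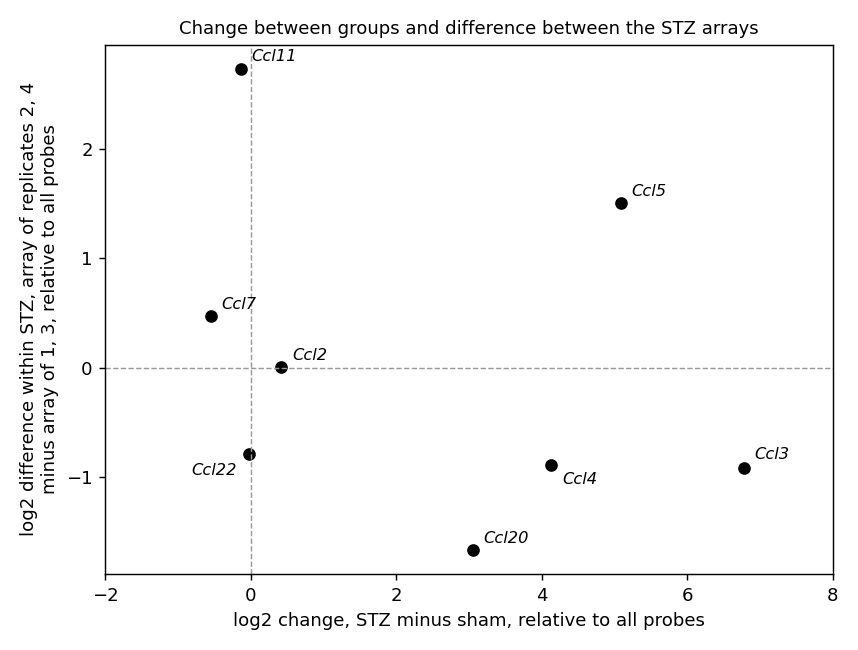
Each point is 1 chemokine, with its change between STZ and sham on the horizontal axis and, on the vertical axis, the difference between the STZ arrays (array 2, replicates 2 and 4, minus array 1, replicates 1 and 3), both log2 and relative to the tested probes' median. Ccl5 at 1.50 lies above 0 while Ccl3, Ccl4 and Ccl20 lie below it, and Ccl11 at 2.73 stands apart with a change near 0.

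The mean pattern of the 8 chemokines over the 4 arrays, as deviations from each gene's own mean, was 1.09 and 1.49 on the STZ arrays, against −0.92 and −1.65 on the sham arrays. Among 12590 other named genes, those nearest to it by root mean square difference were Pth (0.047), Ly49si3 (0.081), Cd69 (0.093), Prg4 (0.102) and Gpr65 (0.113, log2 units). The members themselves lay farther from their mean, from 0.72 for Ccl20 to 2.24 for Ccl3. This likeness rests on 4 arrays.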

How the data were processed

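Per the labels' protocols, skin RNA was amplified, labelled with Cy3 and measured on Agilent arrays in 1 colour. The deposited intensity of a spot is Agilent's processed signal, background-subtracted and not normalized between arrays, from Feature Extraction (version 11.0.1.1 in the deposited headers, and 11.0.0.1 in the submitters' processing notes). The deposited median spot and local background intensities, per the file headers uncorrected, served 1 alternative. The deposited spot flags (well above background, saturation, outliers) are other values, either 0 or 1.

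Scans of 1 array were identified from spot deviations and averaged, giving 2 arrays per group. Values are log2 processed signal minus the sample's 75th percentile over 42136 noncontrol spots, with outlier spots left out and spots of a probe averaged. The test took the 21527 of 24684 probes that 4 or more of the 8 samples showed well above background, of which 18 lacked a value on at least 1 array. STZ was compared with sham in limma 3.58.1 (R 4.3.3; lmFit, eBayes; two-sided), with Benjamini-Hochberg adjustment over these probes. The fit was tested on simulated data. The p refers to the difference on the 75th percentile scale, and the changes in the text have the median of the tested probes subtracted.

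Probes were named by RefSeq accession without version in a GRCr8 table, whereas the file headers name rn4 (14237 of 15286 coding accessions matched), with 1 probe per gene, that of the highest mean signal. The members and lists were chosen with earlier results of these data known. Named beside the members were the 4 genes of each pathway list with the smallest p, receptors of the members and Ackr2 (1 item of the receptor list is not reported here), and the 5 genes most alike in pattern. Il4, Il13, Prg2, Alox15, Epx, Il5ra, Ctla4, S100a8, Lyz2, Ccl24, Ccl27, Ackr3, Rela and Ifng were chosen after their values were seen. Normalization, background correction, filter, scans, blocks, weights, outlier spots and each array left out were varied.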

Additional observations from a re-analysis of the deposited data

How the results depend on the processing

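Over 17 alternative settings, of which the replicate block with crossed numbers was chosen after seeing the data, Ccl3, Ccl4, Ccl5, Ccl20 and Ccl2 were higher in STZ in all 17 and Ccl7 lower in all 17. The first 4 of these were at an unadjusted p under 0.05 in all 17. In the settings that kept all 4 arrays, the number of the 8 higher at that level was 4 or 5. The number with both STZ arrays above both sham arrays was 5 in these settings. With 1 array left out, 1 group has a single array, and the STZ values lay above the sham values for 5 or 6 of the 8. Ccl11 turned to 0.066 with normexp background correction and quantile normalization together and ran from −1.48 to 1.25 with each array left out. Ccl22 turned to 0.061 over probes above background in all samples and 0.0069 in the second scans, and ran from −0.59 to 0.55 with each array left out. The chemokines passing after adjustment numbered 4 with the median of spots for scaling, 5 with 8 samples as separate arrays, which counts rescans as samples, and 4 with the array as a random block. All probes passing numbered 1243, 5244 and 1850 there, and 0 to 48 with 1 array left out (48 without STZ array 1). Under median scaling, limma's prior degrees of freedom were 227, against 3.0 in the reported fit. Probes higher at an unadjusted p under 0.05 numbered 5313 and 2781 with 8 samples and the random block, against 1575, and 677 (without sham array 2) to 5382 (without STZ array 1) with an array left out, 1028 without sham array 1. Those lower numbered 1152 with quantile normalization, 1358 with normexp and quantile normalization together, 1395 with median scaling, 3315 and 2200 with 8 samples and the block, against 761, and 305 (without sham array 2) to 1093 (without STZ array 1) with an array left out, 366 without sham array 1. The cause of these differences was not tested. The median of all probes was −0.037, −0.020 and −0.19 under quantile normalization, normexp with quantile normalization, and median scaling, against 0.23. Same-numbered arrays' deviations from their group means correlated at −0.20 over probes, so the replicate numbers were not taken as pairs. With the replicate block, 4 of the 8 were higher at an unadjusted p under 0.05 and 0 passed after adjustment (adjusted p of Ccl3 0.0573 in limma). With crossed numbers as the block, these counts were also 4 and 0. A slide block could not be run, as all arrays lay on 1 slide, and averaging probes changes nothing, as each member had 1. Precision is limited by having 2 arrays per group.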
